A study of Homo sapiens with 3 samples.

Results

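The 3′ ends of human telomerase RNA (hTR) bound by PABPN1 were compared with those bound by dyskerin (DKC1), over every combination of genome-encoded addition and adenosine tail that the deposited tables list. The comparison took the 2 libraries named for these proteins, of the 3 in the series; the remaining library, of hTR bound by the telomerase reverse transcriptase hTERT, is used only as a scale. FLAG-tagged PABPN1 in the first library, and FLAG-tagged DKC1 in the library it is set against, was expressed from a tetracycline-sensitive promoter in HEK293 cells, a human embryonic kidney line that the source names give as 293FT, and both were induced with doxycycline at 500 ng/ml. Bound RNA was recovered with an anti-FLAG antibody, its 3′ ends were ligated to a linker, and the hTR ends were reverse transcribed and passed through 3 PCRs in a row before sequencing. The tagged proteins were therefore expressed from a transgene, and neither input RNA nor a mock precipitate was used here to set a background.

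hTR, the RNA that telomerase copies into telomeric repeats, is encoded by TERC on chromosome 3 at positions 169764610 to 169765060 of GRCh38.p14, where the gene is annotated as a telomerase RNA. It is made as a precursor that runs past the mature 3′ end. As background, the nuclear poly(A) polymerase PAPD5 adds adenosines to such precursors, the exoribonuclease PARN takes them off again as the end is trimmed, and the RNA exosome degrades precursors that are not matured. PABPN1 binds adenosine tails of nuclear RNA. Dyskerin is a core protein of H/ACA ribonucleoproteins and binds the 3′ domain of hTR in the mature particle. The comparison thus sets RNA recovered with a tail-binding protein against RNA recovered with a protein of the assembled particle. RNA recovered with dyskerin was not limited to mature ends, which formed 44.2% of DKC1 reads.

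An end form is here 1 combination of a genomic addition of 0 to 199 nt and a tail of 0, 2, 3, 4, 5 or 6 adenosines, so each table lists 1200 end forms. An addition of 0 nt was taken as the mature end, which the headers do not define, and larger additions lie downstream of the annotated gene. No column is headed 1. The sources used here do not say how a single adenosine was counted, how added adenosines were told from genome-encoded ones, or whether the last column also holds longer tails. The last column held more reads than the one before it in both libraries, at 6034 against 4248 reads in PABPN1 and 4455 against 2504 reads in DKC1. The PABPN1 library held 2658507 reads and the DKC1 library 2996292. Reads fell on 557 end forms in PABPN1 and on 282 in DKC1. Each protein has 1 library, so replicate error is unknown and the proteins were not tested against each other. All intervals are 95% intervals of counting error only. Reads amplified by PCR may repeat a molecule, and no molecular identifier was used here to remove repeats. The intervals may therefore be too narrow.

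PABPN1-bound hTR was spread over more end forms than dyskerin-bound hTR, and nearly all of the spread lay in additions of 10 nt or more. At least 10 reads in both libraries were found for 161 end forms, which covered 98.98% of PABPN1 reads and 99.99% of DKC1 reads. Of these, 104 took a share of the PABPN1 library at least 2-fold that of the DKC1 library (64.6%), and 13 took a share at least 2-fold lower (8.07%). By the same measure hTERT, set against the same DKC1 library, was at least 2-fold higher in 8 of 158 end forms (5.06%) and at least 2-fold lower in 0 (0%). With a minimum of 50 reads in place of 10, the count of forms at least 2-fold higher in PABPN1 was 53. The number of forms compared at that minimum was not recorded, so 53 cannot be read as a share. Of the other listed end forms, 643 had no read in either library, and 87 had at least 10 reads in PABPN1 and none in DKC1. The remaining 309 had reads but fewer than 10 in at least 1 library. Some of these were frequent in PABPN1, such as tails of 2 on 34 nt, with 682 PABPN1 reads against 4 DKC1 reads. No form had at least 10 reads in DKC1 and 0 in PABPN1. The 87 forms seen with PABPN1 and listed at 0 in DKC1 held 3402 PABPN1 reads in all.

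**Figure D1:**
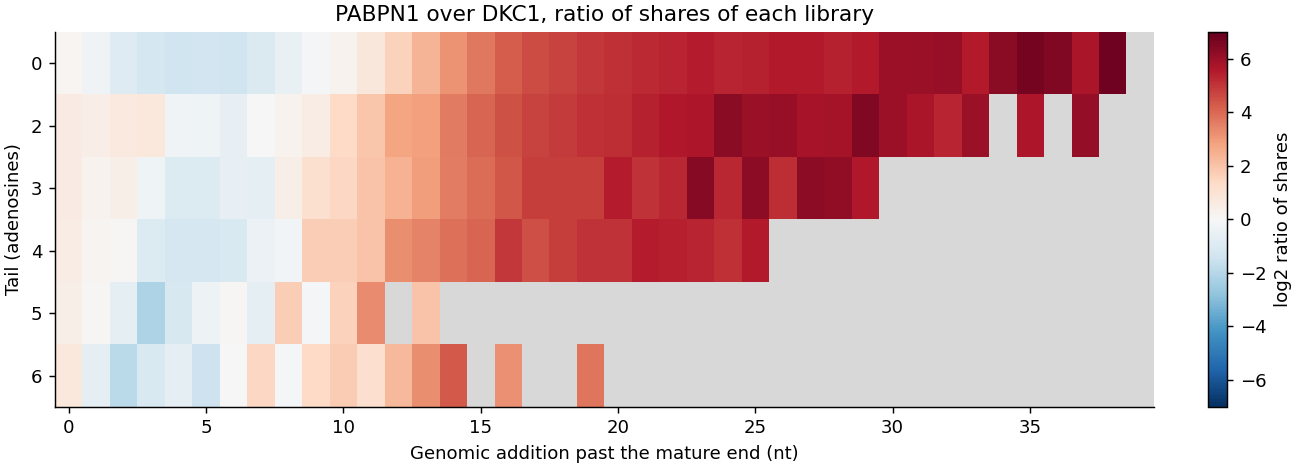
Ratio of the share of the PABPN1 library to the share of the DKC1 library (colour, log2 scale) for each addition length (x axis, nt) and tail length (y axis, adenosines). Grey end forms had fewer than 10 reads in at least 1 library. In the untailed row, additions of 1 to 9 nt lie on the blue side, and all coloured forms from 10 nt on lie on the red side.

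The 2-fold differences split by addition length. From 10 nt on, 99 of 101 end forms were at least 2-fold higher in PABPN1, and the 2 exceptions were untailed ends of 10 and 11 nt, at ratios of 1.17 and 1.72. All 72 tailed forms in this range were at least 2-fold higher. At additions of 0 to 9 nt only 5 of 60 forms were at least 2-fold higher and 13 were at least 2-fold lower. Among the 13 were the untailed ends of 3, 4, 5, 6 and 7 nt, the tails of 4 adenosines on additions of 4, 5 and 6 nt, the tails of 5 on 3 and 4 nt, and the tails of 6 on 2, 3 and 5 nt. The 5 higher forms were tails of 3 on 9 nt, of 4 on 9 nt, of 5 on 8 nt, and of 6 on 7 and 9 nt. No tail of 2 adenosines on 0 to 9 nt was 2-fold apart in either direction.

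Near the mature end the additions at which PABPN1 had the smaller share differed between tail columns. Untailed ends took a smaller share of PABPN1 than of DKC1 at each addition of 1 to 9 nt and a larger one at each addition of 10 to 30 nt. The lowest ratio of untailed ends was 0.376 at 4 nt, where they made up 1.91% of PABPN1 reads and 5.08% of DKC1 reads. Tails of 2 adenosines were below DKC1 only on additions of 4, 5 and 6 nt, and above it from 7 nt on, where the first ratio, 1.02 (0.980 to 1.07), includes equality. Tails of 3 were below on 3 to 7 nt and tails of 4 on 3 to 8 nt. Tails of 5 were below on 2 to 5 and 7 nt and tails of 6 on 1 to 5 nt. Ratios just under 1 with intervals that include it were found for tails of 5 on 9 nt, at 0.939 (0.552 to 1.597), and for tails of 6 on 6 nt, at 0.982 (0.784 to 1.23), and on 8 nt, at 0.957 (0.709 to 1.29), so the columns of 5 and 6 do not fix the length at which the order turns. The lowest ratios in these columns were 0.225 for tails of 5 on 3 nt, with 71 PABPN1 reads against 356 DKC1 reads, and 0.266 for tails of 6 on 2 nt, with 215 against 910 reads.

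**Figure D2:**
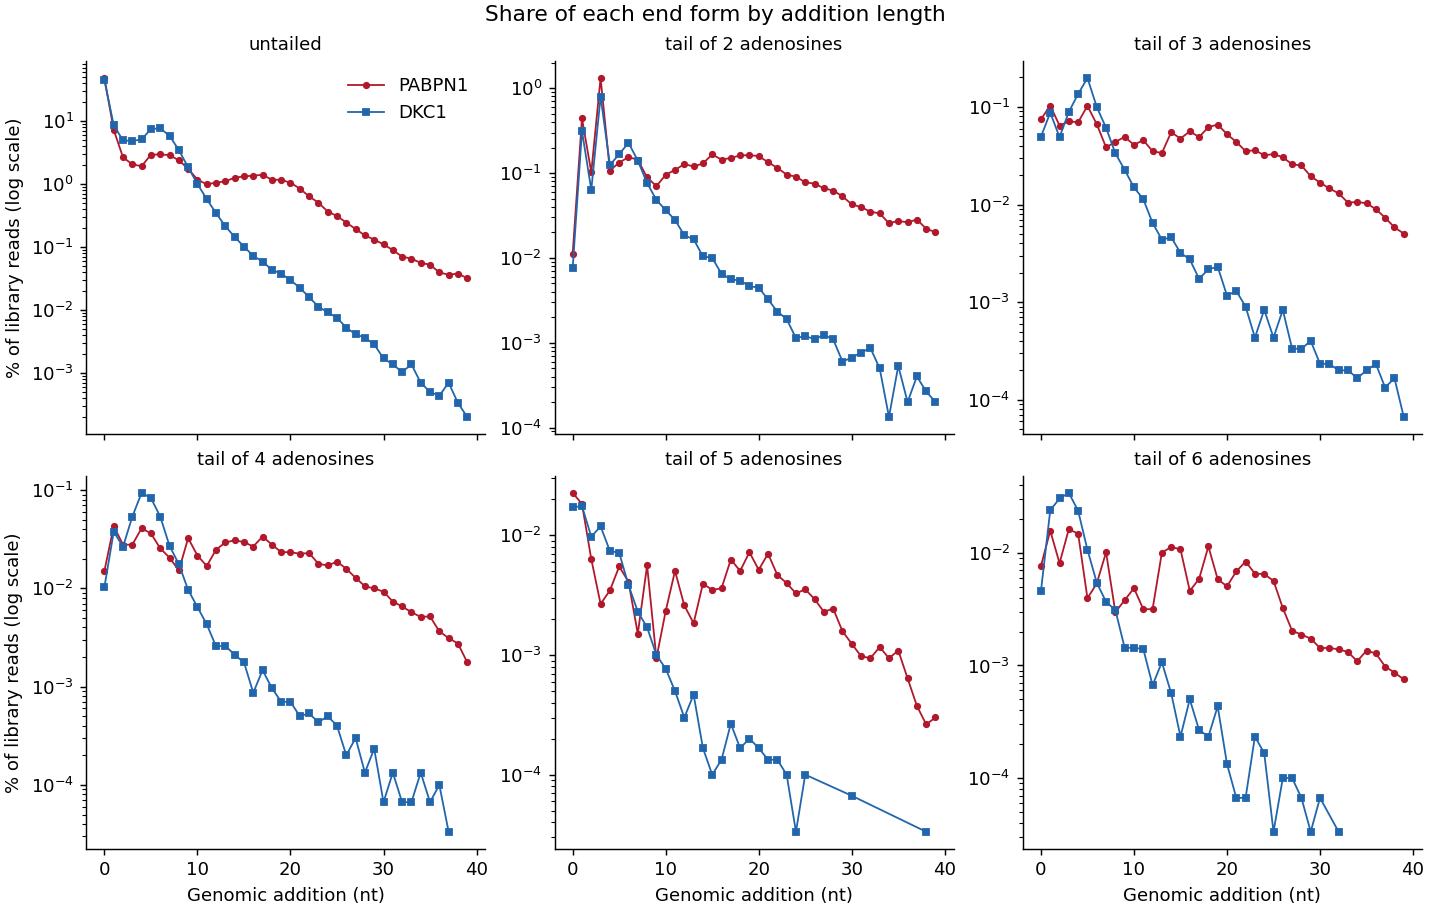
Share of each library (y axis, % of reads, log scale) by genomic addition (x axis, nt), in 1 panel per tail length, for PABPN1 (red circles) and DKC1 (blue squares); lengths with no read are not drawn. In every panel the DKC1 curve is far below the PABPN1 curve at 20 nt, and the PABPN1 curve shows no comparable fall up to that length.

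Among the end forms with at least 100 reads in both libraries, 90 in all, the highest ratios were untailed. They stood at 46.9 for an addition of 27 nt, 46.5 for 26 nt and 44.7 for 23 nt. The lowest were 0.266 for tails of 6 on 2 nt, 0.371 for tails of 6 on 5 nt, and 0.376 for untailed ends of 4 nt. The minimum of 100 reads limits this ranking in DKC1, since tailed ends of these long additions had fewer than 100 DKC1 reads.

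The genomic addition beneath a tail differed between the proteins for every tail length. Tails of 2 adenosines stood on a median addition of 11 nt in PABPN1, with quartiles of 3 and 20 nt, and of 3 nt in DKC1, with quartiles of 3 and 6 nt. For tails of 4 the medians were 14 nt in PABPN1 and 4 nt in DKC1, and for tails of 6 they were 14 nt in PABPN1 and 3 nt in DKC1. Additions of 10 nt or more carried 52.1% of PABPN1 tails of 2 (95% exact interval 51.8 to 52.4), against 7.83% of DKC1 tails of 2 (7.63 to 8.04). For tails of 3 these shares were 58.9% in PABPN1 and 7.15% in DKC1, for tails of 4 64.1% and 6.47%, for tails of 5 55.6% and 4.59%, and for tails of 6 61.0% and 5.34%. Additions of 10 nt or more likewise held 18.7% of untailed PABPN1 ends and 2.81% of untailed DKC1 ends.

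The most frequent addition beneath a tail was the same in both libraries for tails of 2 and of 6 adenosines, and differed for the others. An addition of 3 nt led both columns. It carried 24.6% of PABPN1 and 37.4% of DKC1 tails of 2, and 7.16% of PABPN1 and 22.9% of DKC1 tails of 6. Tails of 3 were most frequent on 1 nt in PABPN1, with 6.20% of the column, and on 5 nt in DKC1, with 22.2%. Tails of 4 were most frequent on 1 nt in PABPN1, with 5.41%, and on 4 nt in DKC1, with 21.2%. Tails of 5 were most frequent at the mature end in PABPN1, with 14.2%, and on 1 nt in DKC1, with 20.9%. In PABPN1, no tail column other than that of 2 adenosines had more than 14.2% of its reads on 1 addition.

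At matched addition, PABPN1-bound ends carried each listed tail length more often than dyskerin-bound ends, and with all additions included the excess was greatest for the shortest tail. The lead over tails of 5 rested largely on the addition of 3 nt, without which the ratio was 1.505 for tails of 2 and 1.47 for tails of 5. Without that addition, tails of 3, 4 and 6 had ratios of 1.32, 1.30 and 1.20, still below that of tails of 2. The share of ends with a given tail was taken at each addition past the mature end and averaged over the 43 additions with at least 10 reads in both libraries, with the mean of both profiles as weights. Tails of 2 were carried by 9.21% of PABPN1 ends and 5.15% of DKC1 ends, a ratio of 1.79 (1.75 to 1.82). Tails of 3 were carried by 2.61% and 1.98%, a ratio of 1.32 (1.27 to 1.36), and tails of 4 by 1.23% and 0.974%, a ratio of 1.26 (1.21 to 1.32). For tails of 5 the ratio was 1.34 (1.20 to 1.51) and for tails of 6 it was 1.13 (1.05 to 1.22). With the addition of 3 nt included, the interval for tails of 2 lay above those of all longer tails, while those for 3, 4 and 5 overlapped. Set against the same DKC1 library, hTERT had matched ratios of 1.09, 0.966, 1.13, 1.18 and 1.30 for tails of 2 to 6, with the highest value for the longest listed tail. For tails of 6 the hTERT interval, 1.25 to 1.35, lay above that of PABPN1. The excess of tails of 6 over DKC1 was therefore not particular to PABPN1. With the weights of the DKC1 profile the ratio of PABPN1 for tails of 2 was 2.18.

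**Figure D3:**
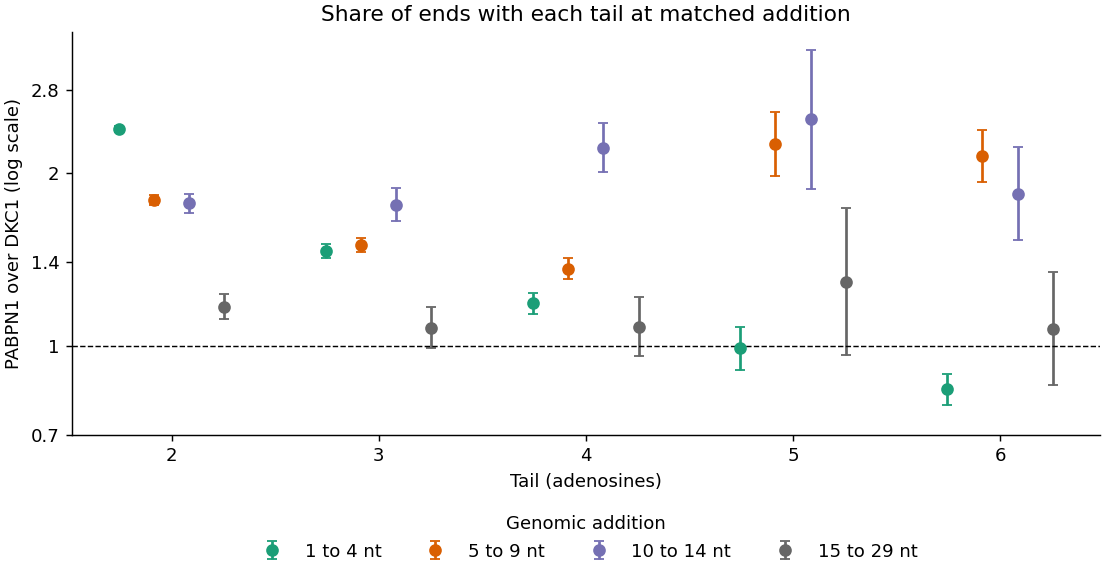
Share of ends carrying each tail in PABPN1 over the share in DKC1 (y axis, log scale) by tail length (x axis, adenosines), averaged over matched additions within 4 ranges of addition (colours); bars are 95% intervals of counting error. On additions of 1 to 4 nt the ratio runs from 2.39 for 2 adenosines to 0.841 for 6, while on 10 to 14 nt no tail length falls below 1.76.

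The dependence on tail length was seen on the shortest additions. On additions of 1 to 4 nt the matched ratio was 2.39 for tails of 2 (2.36 to 2.42), 1.47 for tails of 3 (1.42 to 1.51) and 1.19 for tails of 4 (1.14 to 1.24). It was 0.991 for tails of 5 (0.908 to 1.08), an interval that includes equality, and 0.841 for tails of 6 (0.790 to 0.895), which were thus less frequent among PABPN1 ends. For comparison, the hTERT library had ratios of 1.16, 1.01, 1.15, 1.20 and 1.25 over DKC1 on the same additions.

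Single additions differed within this range. On 2 nt, PABPN1 ends carried tails of 2 at 2.87 times the DKC1 share (2.71 to 3.04), tails of 3 at 2.33 times, tails of 4 at 1.87 times, tails of 5 at 1.15 times (0.955 to 1.396) and tails of 6 at 0.474 times (0.409 to 0.550). On 3 nt the same ratios were 2.75 (2.71 to 2.79), 1.33, 0.862 (0.791 to 0.940), 0.374 (0.290 to 0.482) and 0.793 (0.709 to 0.887). On 1 nt they were 1.62, 1.36, 1.31, 1.21 and 0.760 (0.673 to 0.857). On 4 nt the ratio for tails of 6 was above 1, at 1.59 (1.41 to 1.80), and on 5 nt it was 0.920 (0.738 to 1.15).

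On additions of 5 to 9 nt and of 10 to 14 nt, every listed tail length was more frequent among PABPN1 ends. On additions of 5 to 9 nt the matched ratio was 1.80 for tails of 2 (1.76 to 1.83), 1.497 for tails of 3, 1.36 for tails of 4, 2.25 for tails of 5 (1.98 to 2.56) and 2.15 for tails of 6 (1.93 to 2.38). On 10 to 14 nt it was 1.77, 1.76, 2.22, 2.49 and 1.84 in the same order, with the widest interval, 1.88 to 3.28, for tails of 5. High single values in this range were the tails of 6 on 7 nt, with 269 PABPN1 reads against 110 DKC1 reads and a matched ratio of 5.41 (4.34 to 6.75), and the tails of 5 on 8 nt, with 149 against 51 reads and a ratio of 4.66 (3.39 to 6.397). Tails of 4 on 9 nt had 862 against 289 reads and a ratio of 3.40 (2.98 to 3.88). These 3 forms were picked out after their values were seen. Around them, tails of 6 had a ratio of 2.46 on 6 nt (1.97 to 3.08) and 1.35 on 8 nt (1.003 to 1.83). Tails of 5 had one of 1.28 on 7 nt (0.869 to 1.89) and 0.949 on 9 nt (0.558 to 1.61), and tails of 4 one of 1.22 on 8 nt (1.07 to 1.39) and 2.65 on 10 nt (2.25 to 3.12).

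From 15 nt on, the libraries differed less in their tails. On additions of 15 to 29 nt the matched ratio was 1.17 for tails of 2 (1.12 to 1.23), and those for tails of 3, 4, 5 and 6 were 1.08, 1.08, 1.29 and 1.07, each with an interval that includes 1. On the same additions hTERT had ratios over DKC1 of 1.07, 1.06, 1.34, 1.10 and 1.68 for tails of 2 to 6. Its intervals excluded 1 for tails of 2 (1.009 to 1.15), 4 (1.16 to 1.55) and 6 (1.29 to 2.20), and included 1 for tails of 3 and 5. For tails of 4 and 6 the hTERT ratio was thus above that of PABPN1, with intervals that overlapped. Among tailed ends of 15 nt or more, tails of 2 made up 62.5% in PABPN1 and 60.8% in DKC1, a difference of 1.63 points (-0.191 to 3.47), and tails of 3 made up 21.7% and 23.2%, a difference of -1.51 points (-3.13 to 0.0340). The differences for tails of 4, 5 and 6 were -0.418, 0.313 and -0.00744 points, again with intervals that include 0. Among the single classes from 15 nt on, tails longer than 2 had intervals that excluded equality in 2 places, with ratios of 1.17 (1.002 to 1.36) for tails of 4 on 15 to 19 nt and 0.649 (0.444 to 0.948) for tails of 3 on 40 nt or more. The DKC1 side rests on 2808 tailed reads, against 94336 in PABPN1. At equal depth the DKC1 library held 4.77 reads for every 100 PABPN1 reads at 15 to 19 nt, 2.53 at 20 to 24 nt, 2.05 at 25 to 29 nt, 1.47 at 30 to 39 nt and 0.941 from 40 nt on. Whether some of these DKC1 reads came from the PABPN1 library was not tested.

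The tailed share at single additions followed the same course. Ends with any listed tail were more frequent in PABPN1 at all 14 additions of 1 to 14 nt, each with an interval above 1, at ratios of 1.41 to 2.42. From 15 to 29 nt all 15 ratios were above 1, at 1.03 to 1.38, but only 5 intervals excluded 1. Averaged over these matched additions the ratio was 1.14 (1.10 to 1.18) for PABPN1. It was similar, at 1.12 (1.07 to 1.18), for hTERT over the same DKC1 library. From 30 to 39 nt 4 of 10 ratios were above 1, and the 1 interval that excluded equality lay below it, at 35 nt. Of the 23 additions with at least 100 tailed reads in both libraries, the highest ratios were 2.42 at 3 nt, 2.17 at 10 nt and 2.09 at 11 nt. At 10 nt, tails were on 12.4% of PABPN1 ends and on 5.69% of DKC1 ends. The lowest ratios were 1.08 at 21 nt, 1.04 at 20 nt and 1.03 at 19 nt. At 19 nt, tails were on 18.6% of PABPN1 ends and on 18.0% of DKC1 ends, a ratio whose interval of 0.921 to 1.16 includes 1.

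The make-up of tailed ends by tail length differed most on the shortest additions. Tails of 2 made up 65.4% of all tailed ends in PABPN1 and 57.8% in DKC1, 7.65 points more (7.29 to 7.9997). On additions of 1 to 4 nt they made up 78.7% in PABPN1 and 64.0% in DKC1, 14.7 points more (14.2 to 15.2), and without the addition of 3 nt 61.04% and 48.1%, 13.0 points more. The difference was 4.91 points on additions of 5 to 9 nt (4.15 to 5.67) and -1.76 points on 10 to 14 nt (-3.19 to -0.320). On 1 to 4 nt, of ends with a tail of 2 or more, 21.3% of PABPN1 ends and 36.0% of DKC1 ends had a tail longer than 2. Of those with 3 or more, 42.2% and 50.6% had one longer than 3, and of those with 4 or more, 38.03% and 42.8% had one longer than 4.

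Mature ends formed 48.1% of PABPN1 reads and 44.2% of DKC1 reads, and each tail length on them was somewhat more frequent with PABPN1. Tails of 2 were counted in 299 PABPN1 reads and 229 DKC1 reads, tails of 3 in 1981 and 1480, tails of 4 in 400 and 309, tails of 5 in 602 and 516, and tails of 6 in 203 and 137. Relative to all mature ends, the ratios of PABPN1 over DKC1 were 1.35 (1.14 to 1.61), 1.39 (1.30 to 1.48), 1.34 (1.16 to 1.56), 1.21 (1.07 to 1.36) and 1.53 (1.24 to 1.91). In contrast to the additions of 1 to 4 nt, these intervals overlapped, and no fall with tail length was seen. For hTERT over the same DKC1 library the ratios were 0.943, 0.975, 0.898, 1.48 (1.33 to 1.66) and 1.01 for tails of 2 to 6. Tails of 5 on mature ends thus had a higher ratio with hTERT than with PABPN1. Tails of 3 formed 56.8% of tailed mature ends in PABPN1 and 55.4% in DKC1, and tails of 5 formed 17.3% and 19.3%; both lengths outnumbered tails of 4, at 11.5% and 11.6%. Tails of 2 formed 8.58% and 8.57%.

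The difference in tailed share between the libraries was then split by addition. Tailed ends were 8.21% of PABPN1 reads and 3.70% of DKC1 reads, 4.51 points apart. A symmetric split assigned 2.74 points (60.6%) to the tailed share at matched addition and 1.78 points (39.4%) to the addition profile, that is, to how reads were spread over additions. These terms came from different additions. Additions of 1 to 9 nt gave 2.28 points through their tailed share and -2.04 points through the profile, since PABPN1 had fewer ends there, and so 0.232 points in all. Additions of 10 nt or more gave 0.429 points through the tailed share and 3.81 points through the profile, 4.24 points in all. The addition of 3 nt by itself gave 1.13 points through its tailed share and -0.674 points through the profile.

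**Figure D4:**
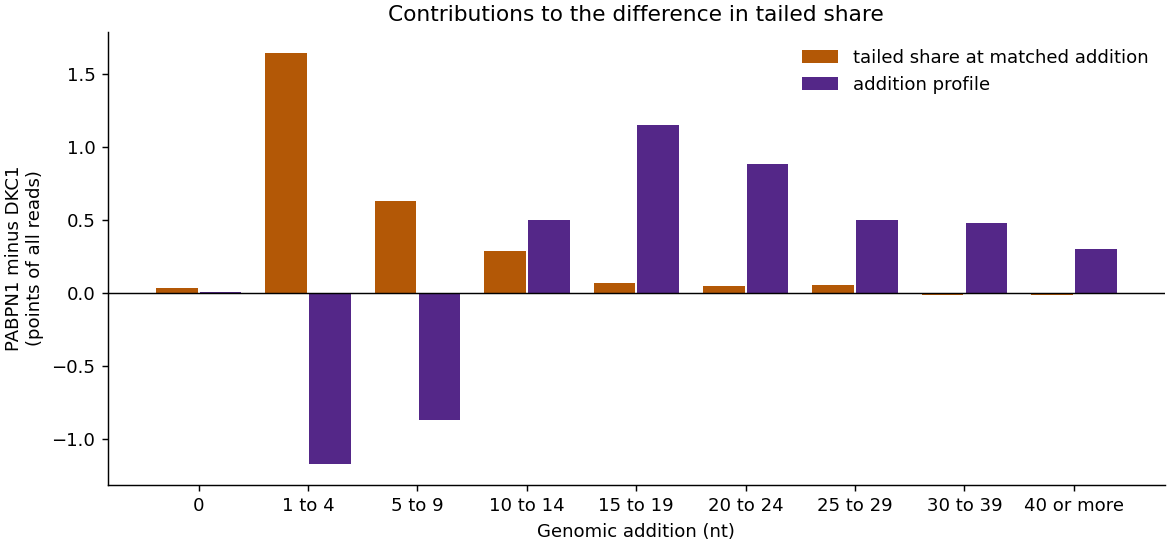
Contribution of each class of addition (x axis, nt) to the difference in tailed share between PABPN1 and DKC1 (y axis, points of all reads), split into the tailed share at matched addition (orange) and the addition profile (purple). The tailing term is largest at 1 to 4 nt, at 1.65 points, and the profile term at 15 to 19 nt, at 1.15 points, with negative profile terms at 1 to 4 and 5 to 9 nt.

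The split shifted with tail length. Tails of 2 took 5.37% of PABPN1 reads and 2.13% of DKC1 reads, and tailing at matched addition gave 67.5% of that difference. For tails of 3, with 1.66% of PABPN1 and 0.888% of DKC1 reads, it gave 46.1%. For tails of 4, with 0.792% and 0.441%, it gave 39.9%, for tails of 5, with 0.160% and 0.0836%, 43.7%, and for tails of 6, with 0.227% and 0.149%, 31.5%. For every tail longer than 2 the addition profile was thus the larger term, and for tails of 3 or more together the terms were 0.724 points for the profile and 0.555 points for tailing.

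When ends were matched on the total added length, addition plus tail, the sign of the difference changed along the length. Tailed ends had a median total of 14 nt in PABPN1, with quartiles of 5 and 23 nt, and of 7 nt in DKC1, with quartiles of 5 and 9 nt. Untailed extended ends had a median total of 7 nt in PABPN1 and of 5 nt in DKC1. At totals of 2 to 7 nt the tailed share was higher in PABPN1 at all 6 lengths, at ratios of 1.29 to 3.37. At 5 nt, tails were on 33.2% of PABPN1 ends and on 10.8% of DKC1 ends. At totals of 8 to 22 nt it was lower in PABPN1 at all 15 lengths, each with an interval below 1, at ratios of 0.526 to 0.882. At 15 nt, tails were on 11.9% of PABPN1 ends and on 22.6% of DKC1 ends. At 23 to 30 nt the ratios lay between 0.926 and 1.28, and 2 of 8 intervals, both above 1, excluded 1. Matching on the addition and matching on the total length thus gave opposite directions at 8 to 22 nt. At a total of 8 nt, for example, 8193 of 71215 PABPN1 ends and 16812 of 119889 DKC1 ends had a tail. By construction, a tailed end of a given total has a shorter addition than an untailed one, by the length of its tail. DKC1 ends numbered 57566 at an addition of 9 nt and 3489 at 15 nt, and PABPN1 ends 50528 and 41813.

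**Figure D5:**
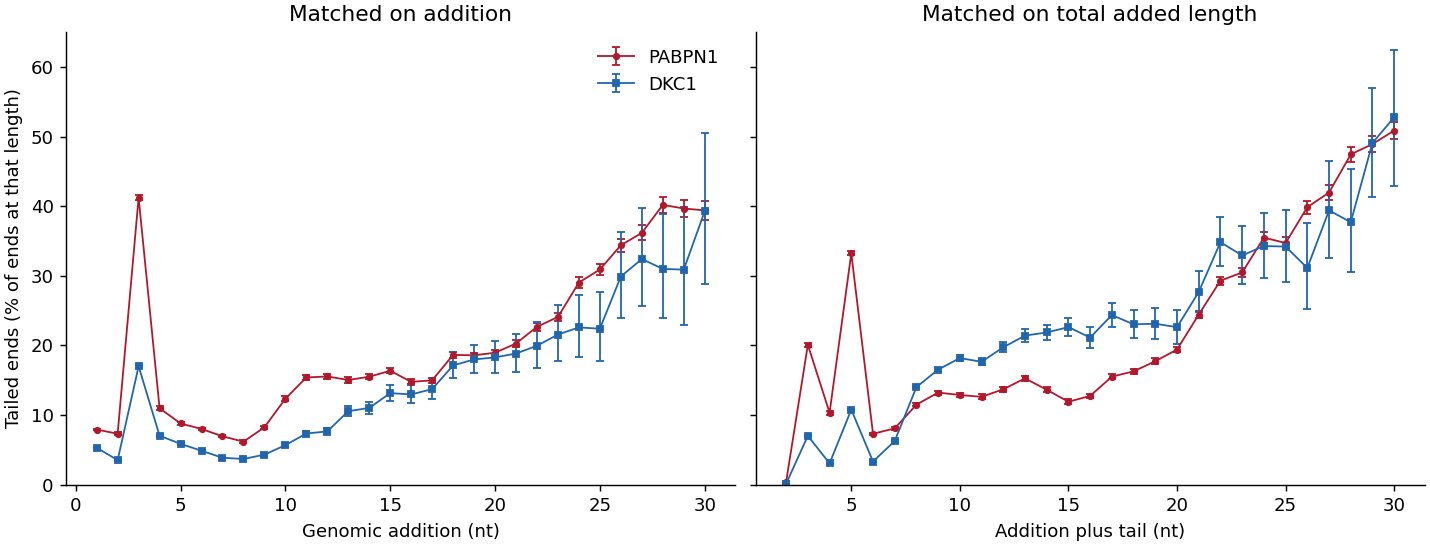
Tailed ends (y axis, % of the ends at that length) in PABPN1 (red circles) and DKC1 (blue squares), by genomic addition (left) and by addition plus tail (right), with 95% exact intervals of counting error. On the left PABPN1 lies above DKC1 up to 29 nt; on the right it lies above up to 7 nt and below from 8 to 22 nt.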

How the data were processed

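The authors deposited 1 table of read counts per library, with rows for additions of 0 to 199 nt and columns for tails of 0, 2, 3, 4, 5 and 6 adenosines, per the file headers. The submitters' processing notes name hg38, Bowtie2, Bowtie and cutadapt without saying what each was used for, and the treatment of duplicate reads is not given in the sources used here. Counts were used as deposited and expressed as shares of their own library of 2658507 (PABPN1) or 2996292 (DKC1) reads. A count of 0 allows a share of up to 0.000113% in PABPN1 and 0.000100% in DKC1 (3 reads).

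Shares have exact Clopper-Pearson intervals, ratios Katz log intervals, matched ratios log-normal intervals from binomial variances and differences Newcombe intervals, all 95% and for counting error only. Coverage of the matched intervals was tested on simulated reads for tails of 2 and 6 on additions of 1 to 14 nt. That of Katz and Clopper-Pearson intervals was tested only for tails of 2 on 3 nt. Coverage was not tested for Newcombe intervals, or for matched ratios that include the sparse additions of 15 nt or more. The simulated reads were drawn independently, so coverage with repeated molecules was not tested either. Forms were compared with at least 10 reads in both libraries and a fold of 2. The split multiplies the difference in each addition's profile by the mean tailed share, and the difference in tailed share by the mean profile. Named forms were the mature end, the leading addition of each tail column, the 3 highest and 3 lowest ratios among forms with at least 100 reads in both libraries, the same for tailed shares per addition, and additions of 1 to 9 nt. The end forms, classes and lists were chosen with earlier results of these data known. Alternatives covered weights, bins of 5 nt, minimum reads and left-out additions. TERC was located in the RefSeq gene table of GRCh38.p14; no genome sequence was used. The software was matplotlib 3.10.9, scipy 1.17.1, numpy 2.4.6 and Python 3.11.15.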

Additional observations from a re-analysis of the deposited data

How the results depend on the processing

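Across 54 alternative values, 36 held, 18 lay outside and 0 changed sign. For matched ratios, a minimum of 100 reads per addition and leaving out additions of 30 nt or more kept the same additions. Their values were therefore identical for every tail length, and these pairs are counted as separate alternatives in the 54. A value held if it lay inside the 95% interval of the main value. Counts of end forms held between 2/3 and 3/2 of the main count, and medians held if equal to the main value. Counts and medians had no sign to change. The cause of the shifts was not tested. Matched ratios for tails of 2 adenosines were 2.18 with the weights of the DKC1 profile, 1.56 with those of PABPN1, 1.83 in bins of 5 nt, 1.85 with a minimum of 100 reads per addition, 1.505 without the addition of 3 nt, 2.02 as a ratio to untailed reads and 1.85 without additions of 30 nt or more, a setting chosen after seeing the data. For tails of 3 they were 1.48 and 1.22 with the weights of DKC1 and PABPN1, 1.37 with a minimum of 100 reads and 1.37 without additions of 30 nt or more. For tails of 6 the ratio to untailed reads was 1.24. With a minimum of 50 reads, 53 end forms were at least 2-fold higher in PABPN1 in place of 104, since fewer could be compared, and with a minimum of 5 reads 137 were. Over reads past the mature end only, 9 forms were at least 2-fold lower in place of 13. The number of forms compared was not recorded for these alternatives, so their counts cannot be read as shares. The split gave 1.695 points to the profile and 2.82 to tailing in bins of 5 nt, and 0.724 and 0.555 for tails of 3 or more. The share of tails of 2 among tailed ends was 10.5 points higher in PABPN1 without the addition of 3 nt. No paired analysis was possible because each protein has 1 library. Depth limits tails of 5 and 6 from 15 nt on, where DKC1 had 49 and 84 reads.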
